A study of Mus musculus with 3 samples.

Results

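MHC class II presentation genes encode the molecules with which antigen presenting cells show peptides to CD4+ T cells. The 8 genes described were H2-Aa, H2-Ab1, H2-Eb1, H2-DMa, H2-DMb1, H2-DMb2, Cd74 and Ciita, out of 33995 genes with an entry for all 3 libraries. An entry can be 0, and 18183 genes were above 0 in the library labelled M1, 18265 in CD4 and 18962 in M2. The 8 genes were chosen by name. The level of a gene was the sum over its Ensembl transcripts, taking for each identifier the first row of the table that held a value in all 3 columns.

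RNA sequencing was performed once on each of 3 cell subsets from BALB/C mice carrying tumors of Renca, a mouse renal tumor cell line, in the kidney; the study's methods name the Cherry and luciferase derivative Renca Ch+ L+ where the labels give Renca. The labels give 30 pooled tumors for the M1 and M2 macrophages and 4 pooled spleens of tumor-bearing mice for the CD4 T cells, although the tag for cell type of the CD4 sample names the renal tumor. They give both day 14 and day 16 after tumor injection. CD4 T cells were sorted as TCRβ+/CD4+, M2 macrophages as F4/80 high with intermediate CD11b, and M1 macrophages as F4/80 intermediate with high CD11b, and the study asked in which of these subsets Foxp3 mRNA was present. With 1 library per subset no difference has a replicate check, no test was possible and no p-value is given.

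A class II molecule is a pair of an alpha and a beta chain, in the mouse I-A (H2-Aa with H2-Ab1) and I-E (an H2-Ea chain with H2-Eb1). The invariant chain, encoded by Cd74, blocks the peptide groove and leads the new molecule to endosomes, where proteases cut it down to the fragment CLIP. H2-DM then exchanges CLIP for peptides, H2-O restrains H2-DM in B cells and some dendritic cells, and CIITA, the product of Ciita, is the coactivator on which transcription of all these genes depends. In the mouse these genes are active in dendritic cells, B cells and activated macrophages, while mouse T cells make little or no class II of their own.

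Levels of cell type genes were read first, since they check the names of the libraries, and they went against the labels M2 and CD4. All 15 of 15 T-cell markers were highest in the library labelled M2, where their summed level was 2275 FPKM (fragments per kilobase of a transcript and per 1000000 fragments mapped), against 17.9 in the library labelled CD4 and 3.45 in the library labelled M1. Of 15 macrophage markers 12 were highest in the library labelled CD4 and 2 in the library labelled M1, with summed levels of 18670.0, 9213 and 884 FPKM in the libraries labelled CD4, M1 and M2. Emr1, which encodes F4/80, was at 45.3 FPKM in the library labelled M1, 215 in CD4 and 9.16 in M2. Itgam, the gene of CD11b, stood at 299, 201 and 14.7 FPKM in the same order. Each library is for this reason called by its label, and every direction given rests on the labels. Depth is not part of FPKM values, and the steps between low values gave an estimate, in units of 1000000 fragments, of 61.4 for the library labelled M1, 72 for CD4 and 59.7 for M2.

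All 8 of the class II presentation genes had the same order, highest in the library labelled M1, lower in CD4 and lowest in M2, except that H2-DMb2 was slightly higher in M2 than in CD4 when all rows of an identifier were summed. This order was found in 18.4% of the 12682 genes with at least 1 FPKM in any library. Between the libraries labelled M1 and M2 the ratio of levels ran from 9.11 for H2-DMb2 to 28.3 for Ciita, with a median of 15.6. Between M1 and CD4 it ran from 1.99 for H2-DMa to 4.37 for H2-DMb2, with a median of 2.57, and between CD4 and M2 from 2.08 for H2-DMb2 to 12.0 for H2-DMa, with a median of 6.13. With all rows of an identifier summed, the ratio between M1 and M2 ran from 3.52 for H2-DMb2 to 301 for H2-Ab1, so that the rank of single genes by ratio depends on the rows taken. In a bulk library fewer cells of a type and less RNA per cell cannot be told apart.

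**Figure D1:**
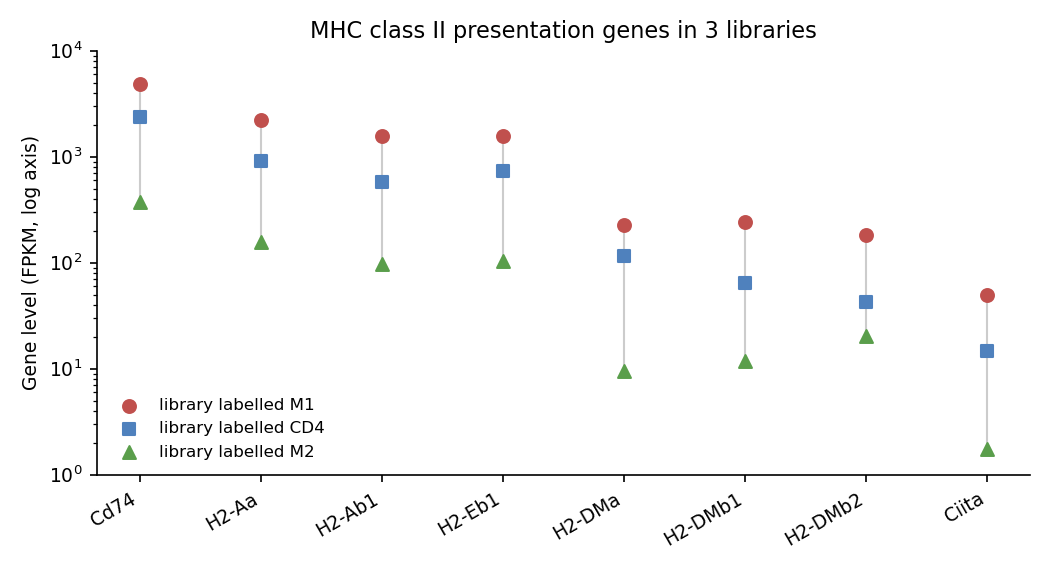
Level of each of the 8 genes in FPKM on a log axis, with 1 point for each library and a line joining the lowest to the highest. The library labelled M1 is on top and the library labelled M2 at the bottom for every gene, although H2-DMb2 in M2 passes CD4 with all rows of an identifier summed, and levels run from Cd74 at 4867 to 374 FPKM down to Ciita at 49.9 to 1.76 FPKM.

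A gene was counted as lower when log2(FPKM + 1) differed by at least 1, which is 2-fold for abundant genes and takes a larger ratio in genes at low levels. In the library labelled CD4 against M1, 7 of the 8 genes were lower by this count and 0 were higher. The exception was H2-DMa, with a difference of -0.99. Of all 33995 genes 2.45% were lower by this count, and 7.21% of those with at least 1 FPKM in either library. In the library labelled M2 all 8 were lower than in M1, beside 5.3% of all genes and 14.5% of those with at least 1 FPKM in either library. All 8 were also lower in M2 than in CD4, or 7 with all rows of an identifier summed, beside 5.6% and 15.3% of genes.

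The median difference of the 8 genes was -1.36 for CD4 against M1, -3.95 for M2 against M1 and -2.54 for M2 against CD4. Over genes with at least 1 FPKM in either library the median was -0.01, 0.10 and 0.12 in the same comparisons. All 8 genes lay in the lowest 5% of these genes for M2 against M1, 7 of 8 for M2 against CD4 and 4 of 8 for CD4 against M1. The 3 comparisons share their libraries in pairs and are not independent.

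**Figure D2:**
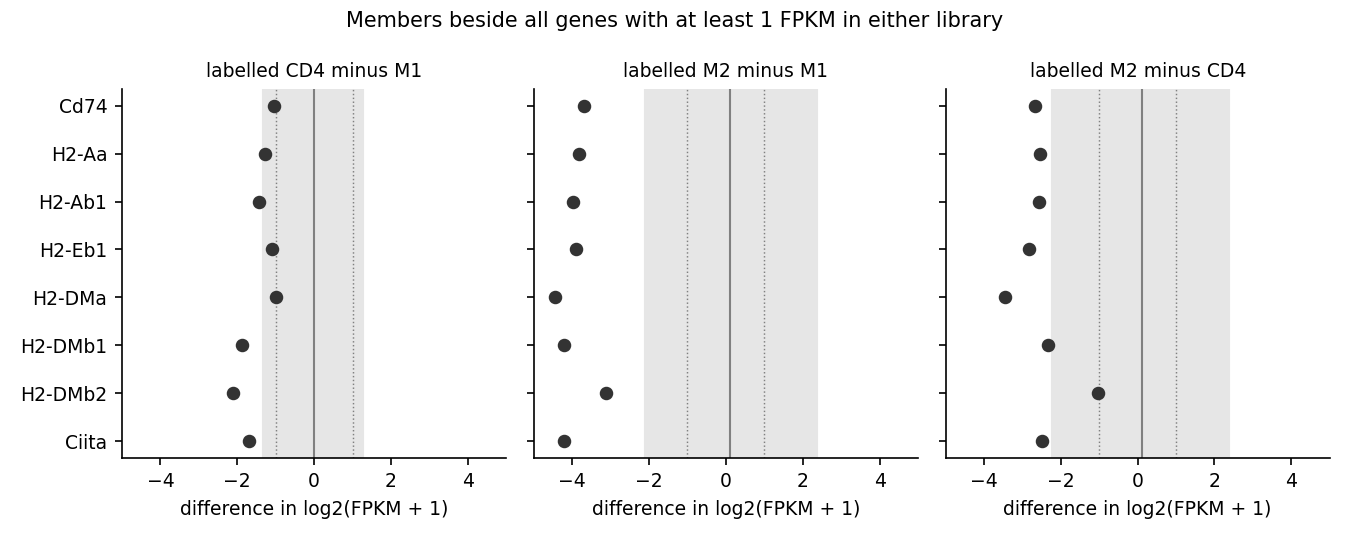
Difference in log2(FPKM + 1) of each of the 8 genes in the 3 comparisons, with dotted lines at 2-fold, a line at the median and a grey band from the 5th to the 95th percentile of all genes with at least 1 FPKM in either library. For M2 against M1 all 8 points lie left of the band, between -4.45 and -3.13, while for CD4 against M1 they lie between -2.10 and -0.99 and 4 are within it.

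The classical chains were among the most abundant transcripts. H2-Aa, the alpha chain of I-A, lies on the reverse strand of chromosome 17 from 34406276 to 34424772 in build NCBIM37, which is also called mm9. Its level was 2224 FPKM in the library labelled M1, 910.2 in CD4 and 157 in M2. Among the rows taken, only 5 genes were higher in M1, 23 in CD4 and 223 in M2. By this rule H2-Aa stayed in the upper 2% of genes above 0 even where it was lowest. With all rows of an identifier summed, H2-K1 at 57424 FPKM, H2-Ab1 at 29285 and H2-D1 at 15828 were also above H2-Aa in M1.

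H2-Ab1, the beta chain of I-A, lies beside it on the forward strand from 34400154 to 34406363. It was at 1555 FPKM in the library labelled M1, 576 in CD4 and 97.2 in M2. The library labelled M1 was 2.70 times the level of CD4 and 16.0 times that of M2. A further row of 1 identifier of H2-Ab1 held a value in the column headed M1 alone, 27730 FPKM, and was not part of this level, whose direction it does not alter.

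H2-Eb1, the beta chain of I-E (chromosome 17, 34442828 to 34453144), was at 1566 FPKM in the library labelled M1, 737 in CD4 and 103 in M2. Its partner has no functional copy in the reference strain C57BL/6 and is annotated as the pseudogene H2-Ea-ps, while mice of the H-2d haplotype such as BALB/C make an intact I-E alpha chain. H2-Ea-ps, which was not among the 8 genes, was at 1801 FPKM in the library labelled M1, 868 in CD4 and 152 in M2. Both chains of I-E thus had the order of I-A. The ratio between M1 and M2 was 15.1 for H2-Eb1 and 11.9 for H2-Ea-ps, beside 14.2 for H2-Aa. With all rows of an identifier summed, H2-Ea-ps was at 199 FPKM in M2 and its ratio was 9.04.

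The proportion of alpha to beta chains was compared within each library. H2-Aa was 1.43 times H2-Ab1 in the library labelled M1, 1.58 in CD4 and 1.61 in M2. H2-Ea-ps was 1.15, 1.18 and 1.47 times H2-Eb1 in the same order. I-A chains together were 1.12 times the I-E chains in M1, 0.926 in CD4 and 0.996 in M2. These are ratios of levels per length within a library, which do not depend on how libraries were scaled. They depend on the rows taken: with the further row of H2-Ab1, H2-Aa was 0.0763 times H2-Ab1 in M1. The I-A chains were then 9.36 times the I-E chains in M1. With all rows of an identifier summed, H2-Ea-ps was 1.93 times H2-Eb1 in M2, and the I-A chains were 0.842 times the I-E chains there. Reads of BALB/C mice were aligned to the genome of the reference strain, and loss of reads by strain differences was not tested. This limit holds for each proportion between genes given below as well.

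Among the rows taken, Cd74 was the highest of the 8 genes, while with all rows of an identifier summed H2-Ab1 was higher in M1. It lies on the forward strand of chromosome 18 from 60963502 to 60972300 in NCBIM37, far from the other genes, and was at 4867 FPKM in the library labelled M1, 2373 in CD4 and 374 in M2. In M1 only 1 gene was higher by the same rule, Lyz2, which encodes lysozyme of myeloid cells, at 5975 FPKM. In CD4 5 genes were higher and in M2 79. Relative to the sum of the 4 classical chains, Cd74 was at 0.681 in M1, 0.767 in CD4 and 0.736 in M2, and at 0.140 in M1 with all rows summed.

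The invariant chain is made in a short and a long form, and the long form carries an inserted thyroglobulin-like domain known to inhibit cathepsins. The transcript of the long form, ENSMUST00000097563, differs from that of the short form, ENSMUST00000050487, by 1 exon of 192 bases, from 60970948 to 60971139. Its share of the summed Cd74 level was 18.3% in the library labelled M1, 17.9% in CD4 and 11.0% in M2. The long form was thus a smaller part of Cd74 in the library labelled M2, as estimated by Cufflinks, which divides fragments between overlapping transcripts by a model.

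H2-DM was at a lower level than the chains it loads. H2-DMa, its alpha chain (chromosome 17, 34272127 to 34276046), was at 229 FPKM in the library labelled M1, 115 in CD4 and 9.56 in M2. The ratio between M1 and M2, 24.0, was larger than for the classical chains and Cd74. This did not hold with all rows of its identifier summed, when H2-DMa was at 398 FPKM in M1 and 26.0 in M2, a ratio of 15.3, and the difference of CD4 from M1 went from -0.99 to -1.78, past 2-fold.

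H2-DMb1, which encodes a beta chain of H2-DM (34290017 to 34297168), was at 240.2 FPKM in the library labelled M1, 64.6 in CD4 and 11.9 in M2. H2-DMb2, the neighboring gene for a second beta chain (34280252 to 34288498), was at 184, 42.2 and 20.3 FPKM. H2-DMb2 was the least separated between CD4 and M2, with a difference of -1.02. That direction depended on rows the rule leaves out: with all rows of an identifier summed, H2-DMb2 was at 50.5 FPKM in CD4 and 52.4 in M2. The 2 genes are near copies, with 95.9% identical bases over 786 bases of coding sequence. Of windows of 51 bases, the read length, 26.7% in H2-DMb1 and 31.3% in H2-DMb2 were shared with another gene, and 0 in the main transcripts of the other 6 genes. Levels of the 2 beta genes are therefore uncertain against each other, and their ratio was 1.30 in M1, 1.53 in CD4 and 0.589 in M2, or 0.227 in M2 with all rows summed.

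Summed over its 3 genes H2-DM was at 654 FPKM in the library labelled M1, 222 in CD4 and 41.7 in M2. The 4 classical chains together were 10.9 times H2-DM in M1, 13.9 times in CD4 and 12.2 times in M2. These proportions rest on the rows taken: with all rows of an identifier summed they were 42.3 in M1, 13.4 in CD4 and 6.17 in M2, with H2-DM at 90.4 FPKM in M2.

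The genes of H2-O, and H2-Eb2, were highest where the 8 genes were lowest, in the library labelled M2, and lowest in CD4. H2-Oa, the alpha chain of H2-O, was at 0.619 FPKM in the library labelled M1, 0.355 in CD4 and 6.28 in M2. H2-Ob, its beta chain, was at 1.23, 0.808 and 19.0 FPKM, which is 15.5 times higher in M2 than in M1. H2-Eb2, a further beta chain of unclear use, was at 0.0464, 0.0361 and 0.380 FPKM. At the estimated depths H2-Eb2 corresponds to 6 fragments in M1 (95% exact Poisson interval 2.20 to 13.1), 6 in CD4 and 50 in M2 (37.1 to 65.9), intervals that cover counting error only. Of the 4 measured class II genes outside the 8, these 3 were therefore highest in the library labelled M2 and H2-Ea-ps in M1.

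**Figure D3:**
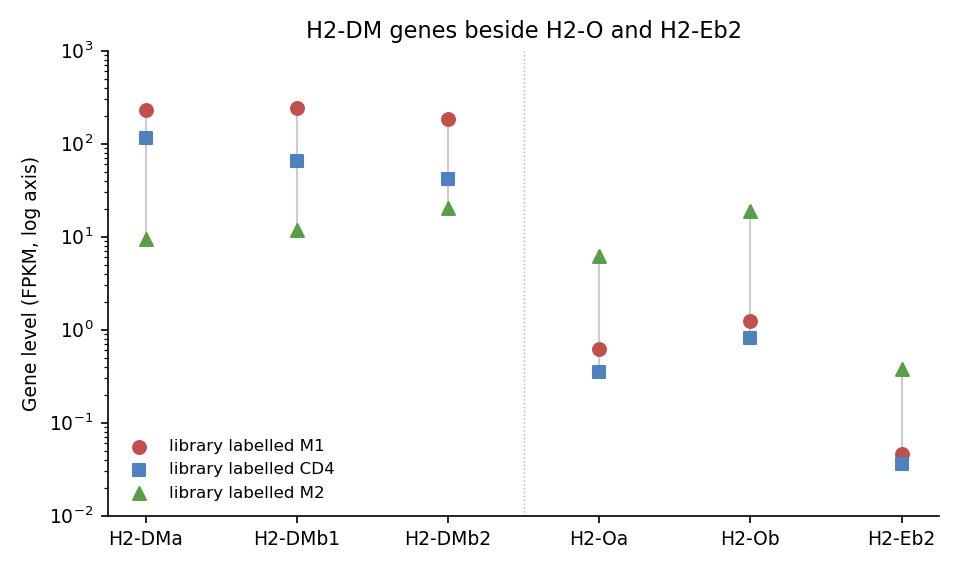
Levels in FPKM on a log axis of the H2-DM genes, left of the dotted line, and of H2-Oa, H2-Ob and H2-Eb2, right of it, with 1 point for each library. The library labelled M2 is lowest for all 3 H2-DM genes, for H2-DMb2 only without the rows the rule leaves out, and highest for H2-Oa, H2-Ob and H2-Eb2.

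The balance of H2-O and H2-DM therefore differed between the libraries. H2-O summed to 1.85 FPKM in the library labelled M1, 1.16 in CD4 and 25.3 in M2, which is 0.283% of the H2-DM level in M1, 0.524% in CD4 and 60.6% in M2. With all rows of an identifier summed these shares were 0.337%, 0.652% and 36.4%. B-cell markers were read beside this difference, and in the rows taken they were mixed. Of 11 measured B-cell markers 6 were highest in the library labelled M2 and 4 in CD4, with summed levels of 23.5, 49.2 and 88.2 FPKM in M1, CD4 and M2, and with all rows of an identifier summed 10 of 12 were highest in M2. Cd79a, a signalling chain of the B-cell receptor, was at 0.161 FPKM in M1, 0.151 in CD4 and 18.2 in M2. Cd79b, the other signalling chain, was at 0.160 FPKM in M1, 0.218 in CD4 and 0 in M2, and also at 0 in M2 with all rows summed. Blnk was at 21.9 FPKM in M1, 37.3 in CD4 and 11.6 in M2. Pax5, the B-cell identity factor, was listed at 0 in all 3, but at 6.49 FPKM in M2 with all rows summed. The part of B cells in the levels of H2-O, and of the 8 genes in the library labelled M2, was not tested.

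Ciita was the lowest of the 8 genes. It lies on the forward strand of chromosome 16 from 10480237 to 10527657 and was at 49.9 FPKM in the library labelled M1, 14.6 in CD4 and 1.76 in M2. Among the rows taken, 1170 genes were higher in M1, 4064 in CD4 and 10699 in M2. Its ratio between M1 and M2 was 28.3, above the 13.0 of Cd74 and 14.2 of H2-Aa. With all rows of its identifiers summed Ciita was at 4.81 FPKM in M2 and the ratio was 10.4, below both. The classical chains stood at 143 times Ciita in M1, 212 times in CD4 and 289 times in M2, and with all rows summed at 699, 212 and 116 times, which turns the order.

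Transcripts of Ciita start at several promoters, of which the most upstream is known from dendritic cells and macrophages and one downstream from B cells. The transcript ENSMUST00000074090 starts at the most upstream position of the annotation, base 10480237, and has a coding sequence of 3465 bases. It was at 48.8 FPKM in the library labelled M1, 14.4 in CD4 and listed at 0 in M2. ENSMUST00000023147 starts 8135 bases downstream, has a coding sequence of 3234 bases and was listed at 0 in M1 and CD4 and at 1.64 FPKM in M2. The short transcript ENSMUST00000100186, which starts 9639 bases downstream of the first, was at 1.08, 0.222 and 0.125 FPKM.

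This split of Ciita by start was thus between the library labelled M2 and the other two, but 2 further rows qualify it. They belong to the upstream transcript, hold values in the column headed M2 alone, 1.33 and 1.72 FPKM, and lie outside the rule. With them the upstream transcript would be the larger in M2 as well, so the start used in that library cannot be settled from the table. The downstream and the upstream transcript have 19 exons each and lengths of 5153 and 5290 bases, and the listing of 1 of them at 0 can be a failed estimate.

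**Figure D4:**
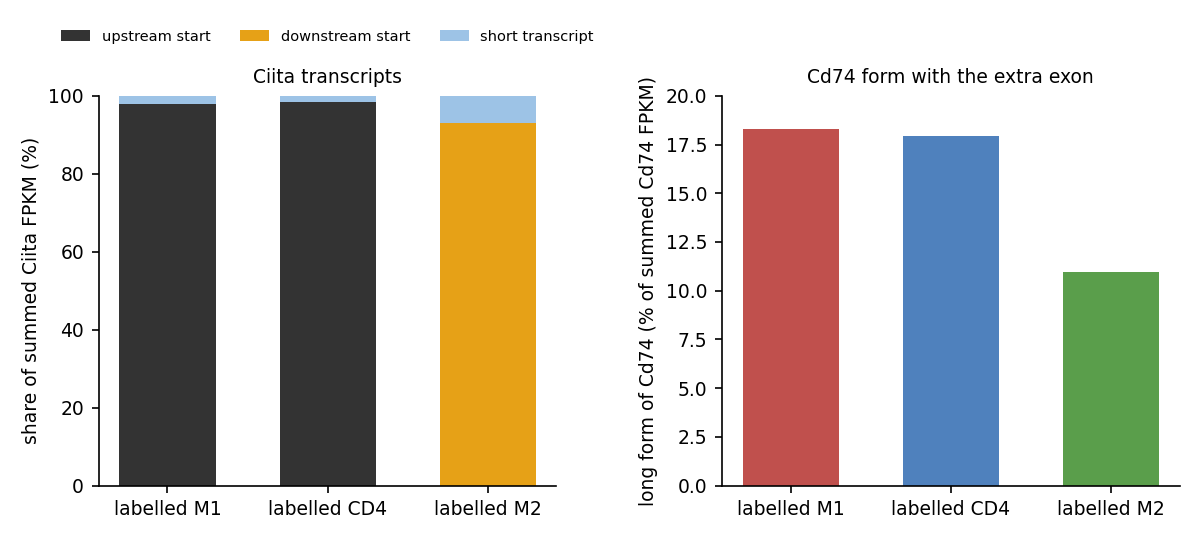
Left, share in percent of each Ciita transcript in the summed Ciita level of each library, leaving out 2 rows of the upstream transcript with values in the column headed M2 alone. Right, share in percent of the long form in the summed Cd74 level, 18.3% in the library labelled M1, 17.9% in CD4 and 11.0% in M2.

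CIITA does not bind DNA itself and is known to act through factors bound to an X box and a Y box in front of class II genes. The promoters, from 250 bases before to 50 bases after the start of a gene, were therefore searched on both strands for AACNGATG, letters common to many X boxes, and GATTGG, the core of the Y box, in the RefSeq sequences of build GRCm38.p6. Of 32851 promoters 16.1% held GATTGG, 4.10% held CTGATTGG, which contains it, and 2.32% held AACNGATG. Windows of 54 bases around GATTGG are shown for some members and for genes outside the set. H2-Aa, H2-Eb1, H2-DMb1 and H2-DMb2 are members, H2-Eb2, H2-Oa and H2-Ob are class II genes that were highest in the library labelled M2, and B2m encodes the light chain of class I. Capitals mark GATTGG and, where it was found, AACNGATG.
H2-Aa: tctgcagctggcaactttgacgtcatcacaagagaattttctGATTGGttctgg
H2-Eb1: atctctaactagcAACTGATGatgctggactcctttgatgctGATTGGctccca
H2-DMb1: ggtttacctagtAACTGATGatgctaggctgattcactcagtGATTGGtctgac
H2-DMb2: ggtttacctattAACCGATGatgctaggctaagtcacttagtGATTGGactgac
H2-Eb2: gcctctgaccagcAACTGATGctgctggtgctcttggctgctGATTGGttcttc
H2-Oa: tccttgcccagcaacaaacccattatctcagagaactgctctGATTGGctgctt
H2-Ob: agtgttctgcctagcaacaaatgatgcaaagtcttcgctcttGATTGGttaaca
B2m: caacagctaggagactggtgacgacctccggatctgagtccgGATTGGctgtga

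In GRCm38.p6 the window of H2-Aa is chr17:34287861-34287914 on the reverse strand. That of H2-Eb1 is chr17:34305765-34305818, that of H2-DMb1 chr17:34153087-34153140 and that of H2-DMb2 chr17:34145116-34145169, all on the forward strand. GATTGG began 49 bases before the start of H2-Aa, 60 before H2-Eb1, 62 before H2-DMb1 and 91 before H2-DMb2. AACNGATG stood 29 bases before GATTGG in H2-Eb1 and 30 in H2-DMb1 and H2-DMb2, counted from first base to first base.

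Of the 32851 promoters 5 held AACNGATG 28 to 31 bases before GATTGG, which is 0.0152%, and they belonged to H2-Eb1, H2-DMb1, H2-DMb2, H2-Eb2 and BC051142. This spacing was chosen after the sequences of the members were seen, so that the count is a description. H2-DMa held GATTGG at position -199 of 1 of its 2 promoters and no AACNGATG. H2-Eb2, at 0.0464 to 0.380 FPKM, thus had the same letters at the same spacing as H2-Eb1, at 103 to 1566 FPKM. H2-Ab1, Cd74 and Ciita had no promoter among the 32851 and were not searched, so they are named without a sequence.

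Genes of the factors that bind these boxes or control Ciita did not share the order of the 8 genes as a group. Of 16 measured regulators 9 were highest in the library labelled M2, 6 in M1 and 1 in CD4, or 11, 5 and 0 with all rows of an identifier summed. In CD4 against M1 0 were higher and 3 lower by at least 2-fold, and in M2 against M1 4 were higher and 3 lower, with medians of -0.12 and 0.44. For M2 against CD4 5 were higher and 2 lower, with a median of 0.61. Among all genes with at least 1 FPKM in either library, 7%, 16.9% and 17.3% were higher in these 3 comparisons. In the same order 7.21%, 14.5% and 15.3% were lower.

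The 6 genes of the complexes on the X and Y boxes each stayed within 2-fold between all 3 libraries on the log2(FPKM + 1) scale. Rfx5, a subunit of the X box factor RFX, was at 3.98 FPKM in the library labelled M1, 4.46 in CD4 and 7.86 in M2, and Rfxap, a further subunit, at 6.55, 7.31 and 8.07 FPKM. Rfxank, the other RFX subunit, was at 2.31, 0.813 and 1.61 FPKM, with the lowest level in CD4. Nfya, a subunit of the Y box factor NF-Y, was at 26.2, 25.0 and 18.6 FPKM, while Nfyb and Nfyc were highest in M2, at 4.09 and 7.13 FPKM. With all rows of an identifier summed Nfyc was at 16.9, 7.34 and 51.8 FPKM and Rfxank at 2.31, 3.11 and 5.86 FPKM, so that these 2 depend on the rows taken.

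Spi1, which encodes PU.1, a factor of macrophages and B cells known to act on the upstream Ciita promoter, was at 139 FPKM in the library labelled M1, 112 in CD4 and 7.51 in M2. It was low where Ciita was low, but M1 and CD4 differed by -0.31 for Spi1 and by -1.71 for Ciita. Irf4, a factor of some dendritic cells and lymphocytes, was at 17.3, 2.07 and 2.97 FPKM, and alone among the 16 was lower by at least 2-fold in both CD4 and M2 than in M1, but it was at 10.3 FPKM in M2 with all rows summed. Irf8 was not analysed here.

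Interferon gamma is known to induce Ciita in macrophages, and genes of its pathway differed in their order. Irf1, a transcription factor of the pathway, was at 22.4 FPKM in the library labelled M1, 27.4 in CD4 and 77.9 in M2. Socs1, a feedback inhibitor, was at 6.14, 1.99 and 15.3 FPKM. Ifngr2, a receptor chain, was lowest in the library labelled M2, at 11.5, 21.7 and 3.48 FPKM. With all rows of an identifier summed it was at 54.6, 50.1 and 25.1 FPKM, still lowest in M2 but higher in M1 than in CD4.

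Proteases and cofactors of antigen processing separated the libraries labelled CD4 and M1 in another way than the class II genes. Of 10 measured genes 7 were highest in the library labelled CD4, 2 in M1 and 1 in M2. In CD4 against M1 2 were higher by at least 2-fold and 0 lower, with a median of 0.30, beside a median of -1.36 for the 8 class II genes. In M2 7 were lower than in M1 and 7 lower than in CD4, with medians of -1.30 and -2.40. Of all genes with at least 1 FPKM in either library, 14.5% were lower in M2 than in M1 and 15.3% than in CD4. For CD4 against M1, 7% of such genes were higher and 7.21% lower.

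Ctss, which encodes cathepsin S, the protease that cuts the invariant chain to CLIP, was at 1137 FPKM in the library labelled M1, 1286 in CD4 and 116 in M2. Lgmn, the asparaginyl endopeptidase legumain, was at 254, 1175 and 94.8 FPKM, and Ctsb, cathepsin B, at 370, 1116 and 162 FPKM. Ifi30, the thiol reductase GILT that opens disulfide bonds of antigens, was at 518, 477 and 73.2 FPKM. With all rows summed Ctsb was at 312 FPKM in M2. These 4 genes were lowest in M2, yet none was lower in CD4 than in M1 by 2-fold. Ctse, cathepsin E, was the exception to the list, at 12.2 and 13.2 FPKM in M1 and CD4 and 69.1 in M2.

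Genes of class II trafficking and turnover were mixed, with 2 of 10 highest in M1, 4 in CD4 and 4 in M2. March1, the ubiquitin ligase that removes class II from the cell surface, was at 24.9 FPKM in the library labelled M1, 24.1 in CD4 and 2.83 in M2. Cd83, which opposes March1, was at 12.9, 47.5 and 9.31 FPKM. In CD4 against M1 2 were higher by at least 2-fold and 0 lower. M2 had 2 higher and 2 lower than M1, and 2 higher and 5 lower than CD4. Of all genes with at least 1 FPKM in either library, 7% were higher and 7.21% lower in CD4 than in M1. For M2 against M1 these shares were 16.9% and 14.5%, and for M2 against CD4 17.3% and 15.3%.

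In the rows taken, class I presentation did not follow class II. Of 16 measured genes 11 were highest in the library labelled M2, 3 in CD4 and 1 in M1, or 8, 4 and 3 with all rows of an identifier summed. Median differences were 0.02 for CD4 against M1, 0.84 for M2 against M1 and 0.65 for M2 against CD4, and 6 genes were higher and 1 lower by at least 2-fold in M2 than in either of the others. Of all genes with at least 1 FPKM in either library, 16.9% were higher and 14.5% lower in M2 than in M1. For M2 against CD4 these shares were 17.3% and 15.3%. H2-K1, a class I heavy chain, was at 228 FPKM in the library labelled M1, 208 in CD4 and 579.8 in M2, but at 57424 in M1 with all rows summed. H2-D1, a further heavy chain, was at 507, 587 and 917 FPKM, but at 15828 in M1 with all rows summed. Both heavy chains were then highest in M1, and the list summed to 75592 FPKM in M1, 3845 in CD4 and 4554 in M2. B2m, the class I light chain, was at 1300.0, 1761 and 1668 FPKM, and Nlrc5, the counterpart of Ciita for class I, at 8.94, 9.95 and 27.1 FPKM. Cd74 was therefore 3.74 times B2m in M1, 1.35 times in CD4 and 0.224 times in M2. Psmb8 was listed at 0 in M1, but with all rows summed it was at 107 FPKM in M1, 80.7 in CD4 and 142 in M2. Psmb9 was listed at 0 in all 3, which can be a failed estimate.

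**Figure D5:**
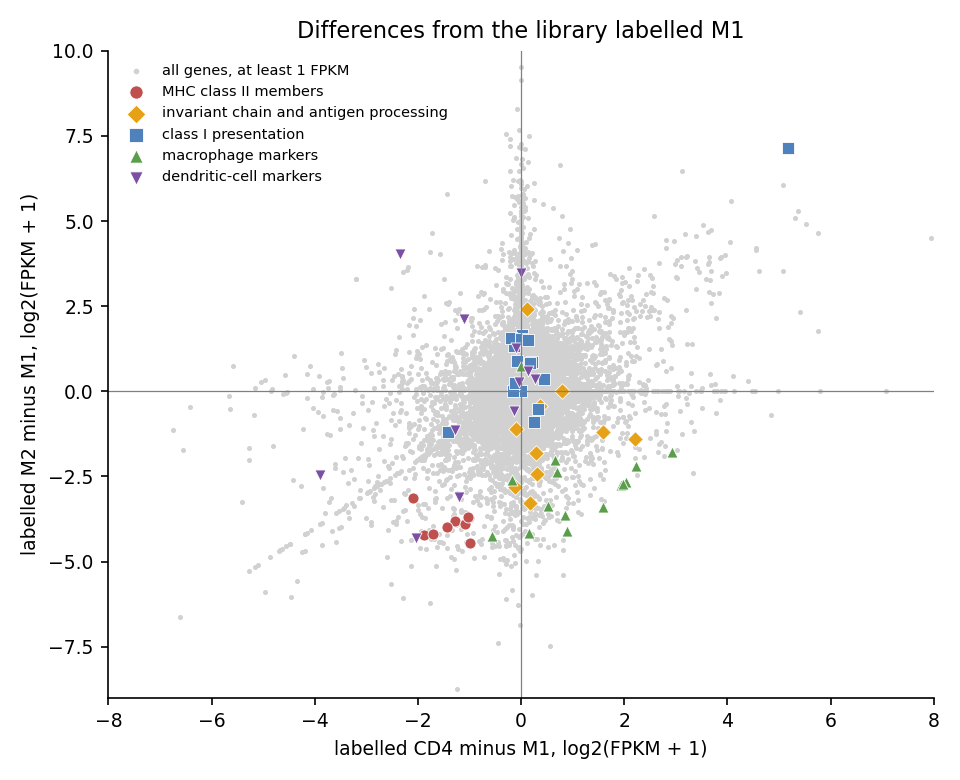
Difference in log2(FPKM + 1) of the library labelled CD4 (horizontal) and of the library labelled M2 (vertical) from the library labelled M1, for 12682 genes with at least 1 FPKM in any library in grey and for 5 gene lists in color. The 8 class II genes lie together at the lower left, macrophage markers and genes of antigen processing lie mostly at the lower right, and the class I gene at the upper right is Psmb8, listed at 0 in M1.

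Macrophage markers were compared with the 8 genes, since both were lowest in the library labelled M2. Of 15 macrophage markers 14 were lower in M2 than in M1 and 14 lower than in CD4 by at least 2-fold, with medians of -2.71 and -4.41. In CD4 against M1 6 were higher and 0 lower, with a median of 0.86, where 7 of the 8 class II genes were lower. Of all genes with at least 1 FPKM in either library, 14.5% were lower in M2 than in M1 and 15.3% than in CD4. For CD4 against M1, 7% of such genes were higher and 7.21% lower. Csf1r, whose product is the growth factor receptor of macrophages, had levels of 279, 519 and 15.3 FPKM in M1, CD4 and M2. Cd74 was 17.5 times Csf1r in M1, 4.57 times in CD4 and 24.5 times in M2.

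Dendritic-cell markers were read as well. Of 12 measured 5 were highest in the library labelled M1, 0 in CD4 and 7 in M2, and their summed levels were 181, 45.0 and 169 FPKM, or 184, 46.6 and 209 FPKM with all rows summed, when M2 was highest. In CD4 against M1 0 were higher and 6 lower by at least 2-fold, with a median of -0.62. Of all genes with at least 1 FPKM in either library, 7% were higher and 7.21% lower in this comparison. Itgax, which encodes CD11c, was at 124 FPKM in the library labelled M1, 29.5 in CD4 and 5.30 in M2. Batf3, a factor of cross-presenting dendritic cells, was at 11.0, 4.21 and 0.404 FPKM and Cd209a, a lectin of monocyte-derived dendritic cells, at 23.7, 0.653 and 3.53 FPKM. Defining genes of conventional dendritic cells were low, with Zbtb46 at 1.42, 1.21 and 0.628 FPKM, Flt3 at 0.314, 0.227 and 2.19 FPKM and Xcr1 at 0.194, 0.432 and 0.533 FPKM. The part of dendritic cells in the levels of the 8 genes was not tested.

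The genes whose pattern was most like the class II set were found among 7024 genes with at least 10 FPKM in at least 1 library, as those at the smallest distance from the mean centred log2 profile of Cd74, H2-Aa, H2-Ab1 and H2-Eb1 over the 3 libraries. Gm2a, the GM2 activator of lysosomes, was nearest, at 195 FPKM in the library labelled M1, 84.6 in CD4 and 12.7 in M2. Il1rn, which encodes the interleukin 1 receptor antagonist, was next, at 109.8, 46.2 and 6.50 FPKM, followed by Pira5, Lrrc33 and Bcl2a1a. Of the other members Ciita had 18 genes nearer to the profile that were no members, H2-DMb1 35, H2-DMa 54 and H2-DMb2 262. Likeness over 3 libraries rests on 2 differences and is a description.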

How the data were processed

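Levels of transcripts were read from 1 table of 135070 rows that the authors deposited in FPKM, with 1 column for each of 3 libraries. The authors aligned paired reads of 51 bases to mouse genome mm9 with Bowtie and TopHat and estimated transcripts with Cufflinks, guided by Ensembl release 67; the submitters' processing notes also name Cuffdiff. How the libraries were joined into 1 table is not given in the sources used here. Columns were assigned by their headings. Of 92520 identifiers, some with several rows, 90316 were found in the GENCODE annotation of NCBIM37. For each identifier the first of the 92290 rows with values in all 3 columns was used, and transcripts were summed per gene. Differences are of log2(FPKM + 1), a pseudocount of 1. No filter on low levels was set, apart from that of 1 FPKM where stated. Depth was estimated from the lowest frequent step of FPKM times length in transcripts of 2500 to 8000 bases. The genes named are the 8 members, members of the gene lists and the 5 genes of most similar pattern. BC051142 is named outside this rule, as 1 of a count of 5, and was picked once the promoter matches were known. The members and lists were chosen with earlier results of these data known. Calculations were tested on simulated data. Software was Biopython 1.88, matplotlib 3.10.9, scipy 1.17.1, pandas 2.3.3, numpy 2.4.6 and Python 3.11.15. Irf8 and the protein data were not analysed here. Some list members enter the counts and medians but are not named.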

Additional observations from a re-analysis of the deposited data

Results flagged for a closer look

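Some identifiers of the 8 genes had further rows, outside the levels compared, that did not hold a value above 0 in every column. Each listed here was above the level that 3 fragments would give. For H2-Ab1 such a row held 27730 FPKM in the library labelled M1. For H2-DMa the rows summed to 169 FPKM in M1 and 16.5 in M2. For H2-DMb2 they summed to 8.34 FPKM in CD4 and 32.2 in M2. For Ciita they summed to 3.05 FPKM in M2, for H2-Aa to 9.45 in M1 and 0.716 in M2, and for H2-DMb1 to 1.41 in M1. The libraries hold no control samples for these rows, and what the rows stand for was not tested.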

How the results depend on the processing

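No paired analysis was possible because there was 1 library for each subset. The number of genes lower by 2-fold, which cannot pass 8, was 6 to 8 for CD4 against M1 and for M2 against CD4 and 8 for M2 against M1 under the alternatives that kept 2-fold, and at 4-fold it was 1 for CD4 against M1. The median differences kept their sign and their side of 2-fold under every alternative tried, from -1.74 to -1.27 for CD4 against M1, -3.99 to -3.10 for M2 against M1 and -2.62 to -1.92 for M2 against CD4. With all rows of an identifier summed, H2-DMb2 turned to 0.0523 for M2 against CD4, through rows with a value in the column headed M2 or CD4 alone, H2-Ab1 in M1 went to 29285 FPKM, and ranks and proportions between the 8 genes moved as given in the text. With column totals rescaled to 1000000 Ciita was at -0.91 for CD4 against M1 and -0.47 for M2 against CD4, and H2-DMb2 at -0.41 for M2 against CD4. This rescaling lowers all levels while the pseudocount of 1 was kept, which shrinks the differences of genes at low levels. Over genes at 1 or more in both libraries after rescaling, the median log2 ratio was -0.19 for CD4 against M1 and 0.12 for M2 against CD4. The column totals lie mostly in a few rows over 100000 FPKM, which hold 88.0% of the column headed M1, 85.7% of CD4 and 81.2% of M2. Rescaling the rows used to 1000000, an alternative chosen after seeing the data, moved the median of all genes to 0.25 for M2 against M1 and 0.26 for M2 against CD4 and left H2-DMb2 at -0.88. With 1 library per subset the spread between animals is unknown.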

Other observations

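Genes of class II trafficking and turnover were mixed in their order. March1, March8, Cd83, Cd9 and Ap2m1 were lowest in the library labelled M2. March8 was at 15.0 FPKM in M1, 22.1 in CD4 and 5.44 in M2, and Ap2m1 at 59.2, 104.6 and 48.1. The other genes of this list were not lowest in M2. The tetraspanins Cd37 and Cd82, membrane organizers that associate with class II, were at 30.6 and 20.3 FPKM in the library labelled M1, 31.2 and 15.7 in CD4 and 123 and 86.8 in M2. Cd63, a tetraspanin of late endosomes, was highest in the library labelled CD4, at 186 FPKM against 55.2 in M1 and 74.8 in M2. Ap1m1, an adaptor subunit of sorting vesicles, stayed between 32.5 and 41.1 FPKM in the 3 libraries.

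Some genes listed as dendritic-cell markers were highest in the library labelled M2, where class II was lowest. Ccr7, the receptor that leads dendritic cells and naive T cells to lymph nodes, was at 6.44 FPKM in the library labelled M1, 0.464 in CD4 and 122 in M2. Siglech, a receptor of plasmacytoid dendritic cells, had levels of 0.286, 0.280 and 13.2 FPKM in M1, CD4 and M2. For Dpp4, which T cells also express, they were 1.93, 0.364 and 11.7 FPKM.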
